A study of Mus musculus with 3 samples.

Results

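The mitochondrial ribosomal protein genes encode the proteins of the ribosome inside mitochondria. They were taken as all probe sets whose only platform gene symbol starts with Mrpl or Mrps followed by a digit. The rule found 156 of 45101 probe sets, which read 76 of 18193 genes: 47 with an Mrpl symbol and 29 with an Mrps symbol. Members were chosen by symbol alone and no intensity entered the rule, but the set was proposed with its readings on these 3 arrays known, so all its values are given as a description. The data are 3 arrays of mouse bone marrow dendritic cells, grown with 20 ng/mL GM-CSF from the marrow of female mice aged 6 weeks. Nonadherent cells of day 7 were kept for 24 h with a stimulus labelled PTX (100 ng/mL), with the bacterial lipopolysaccharide LPS (1 µg/mL) or with PBS, 1 array each. The labels do not spell out PTX. They give the strain C57BL/6 for the LPS and PBS samples and C57BL/7 for the PTX sample, and they do not say whether the cultures shared a mouse. With 1 array per group no difference has a replicate check, no test was possible and no error of a value can be given.

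Mitochondrial ribosomes translate the few messenger RNAs of the mitochondrial genome, all of which encode membrane subunits of the respiratory chain and ATP synthase. Their ribosomal RNAs are made in the mitochondrion, whereas every one of their proteins is encoded in the nucleus, made in the cytosol and imported. A part of the proteins has counterparts in bacterial ribosomes, and the rest was added during mitochondrial evolution. In dendritic cells and macrophages, Toll-like receptor 4 ligands such as LPS are known to alter the balance of glycolysis and respiration.

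The LPS array stood apart from the other arrays in some technical values and not in others. Over the noncontrol probe sets the PTX array had a median intensity of 86.9, the LPS array of 65.3 and the PBS array of 85.7. The 18 bacterial hybridization controls, added to the samples before hybridization, differed by 0.20 on the log2 scale in LPS minus PBS (median) and by 0.01 in PTX minus PBS. The 24 poly-A control probe sets differed by 0.26 in LPS minus PBS (median, 24 above 0). Their medians were -0.07 in PTX minus PBS and -0.33 in PTX minus LPS (0 above 0 in the latter). Medians and counts after scaling on the hybridization controls are given further below. No scaling on the poly-A controls was made, and the part of these offsets in the differences below was not tested. For 18S ribosomal RNA, the 3′ probe set divided by the 5′ one gave 0.20 (PTX), 1.95 (LPS) and 0.26 (PBS). The same ratio was close on all arrays for beta-actin, at 1.40 (PTX), 1.39 (LPS) and 1.33 (PBS), and for Gapdh, at 1.12 (PTX), 0.96 (LPS) and 1.02 (PBS). Of 8 dendritic cell markers 7 were measured, and Cd209a stayed below the level for a measured gene. Marker sums, here and below, run over all markers with a probe set, measured or not. The dendritic cell markers had summed intensities of 19274 (PTX), 26554 (LPS) and 17352 (PBS). Members of that sum went opposite ways in LPS minus PBS, with Ccr7 at 1.39 and Cd74 at 0.78, but Itgax at -0.49 and Clec10a at -2.80 on the log2 scale. Macrophage markers (6 of 6 with a probe set measured) summed to 28825 (PTX), 26426 (LPS) and 17362 (PBS). In LPS minus PBS 4 of them lay above 0, with Fcgr1 at 2.73 and Adgre1 at 1.40. The other 2, C1qa at -0.65 and C1qb at -0.63, lay below it. The 6 granulocyte markers, of which 4 were measured and Elane and Mpo not, summed to 5294, 11614 and 10191 on the PTX, LPS and PBS arrays. They too were mixed in LPS minus PBS: Camp differed by 1.66 and S100a8 by 0.61, but S100a9 by -1.005 and Ltf by -1.05. The 5 mast cell and eosinophil markers, of which only Cpa3 and Prg2 were measured, summed to 199 (PTX), 1999 (LPS) and 358 (PBS). The 5 T and NK cell markers, 3 of them measured, summed to 501.7, 393 and 449 on the PTX, LPS and PBS arrays. The 4 stromal markers, 1 of them measured, summed to 267, 269 and 257 in the same order. None of the 3 B cell markers (107, 81.4 and 123) or the 2 erythroid markers (61.8, 65.0 and 43.0) was measured. The part of these markers in the differences below was not tested. In cultures of mixed cells, a change in the share of a cell type and a change in RNA per cell cannot be told apart.

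All 76 genes were measured, meaning that the brightest probe set of each reached the median of all noncontrol values, an intensity of 78.9, on at least 1 array. Differences are given as log2(intensity + 16), so that a difference of 1 is about 2-fold. Intensities of the members ran from 124 to 1937 on the PTX array (median 585), from 44.2 to 2885 on the LPS array (median 846) and from 162 to 1987 on the PBS array (median 662). The LPS array held the highest reading for 62 of the 76 genes, against 34.4% of all measured genes. The PTX array held the lowest reading for 53 of the 76, against 27.5% of all measured genes. Both held at once for 49 members, against 18.4% of all measured genes.

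**Figure D1:**
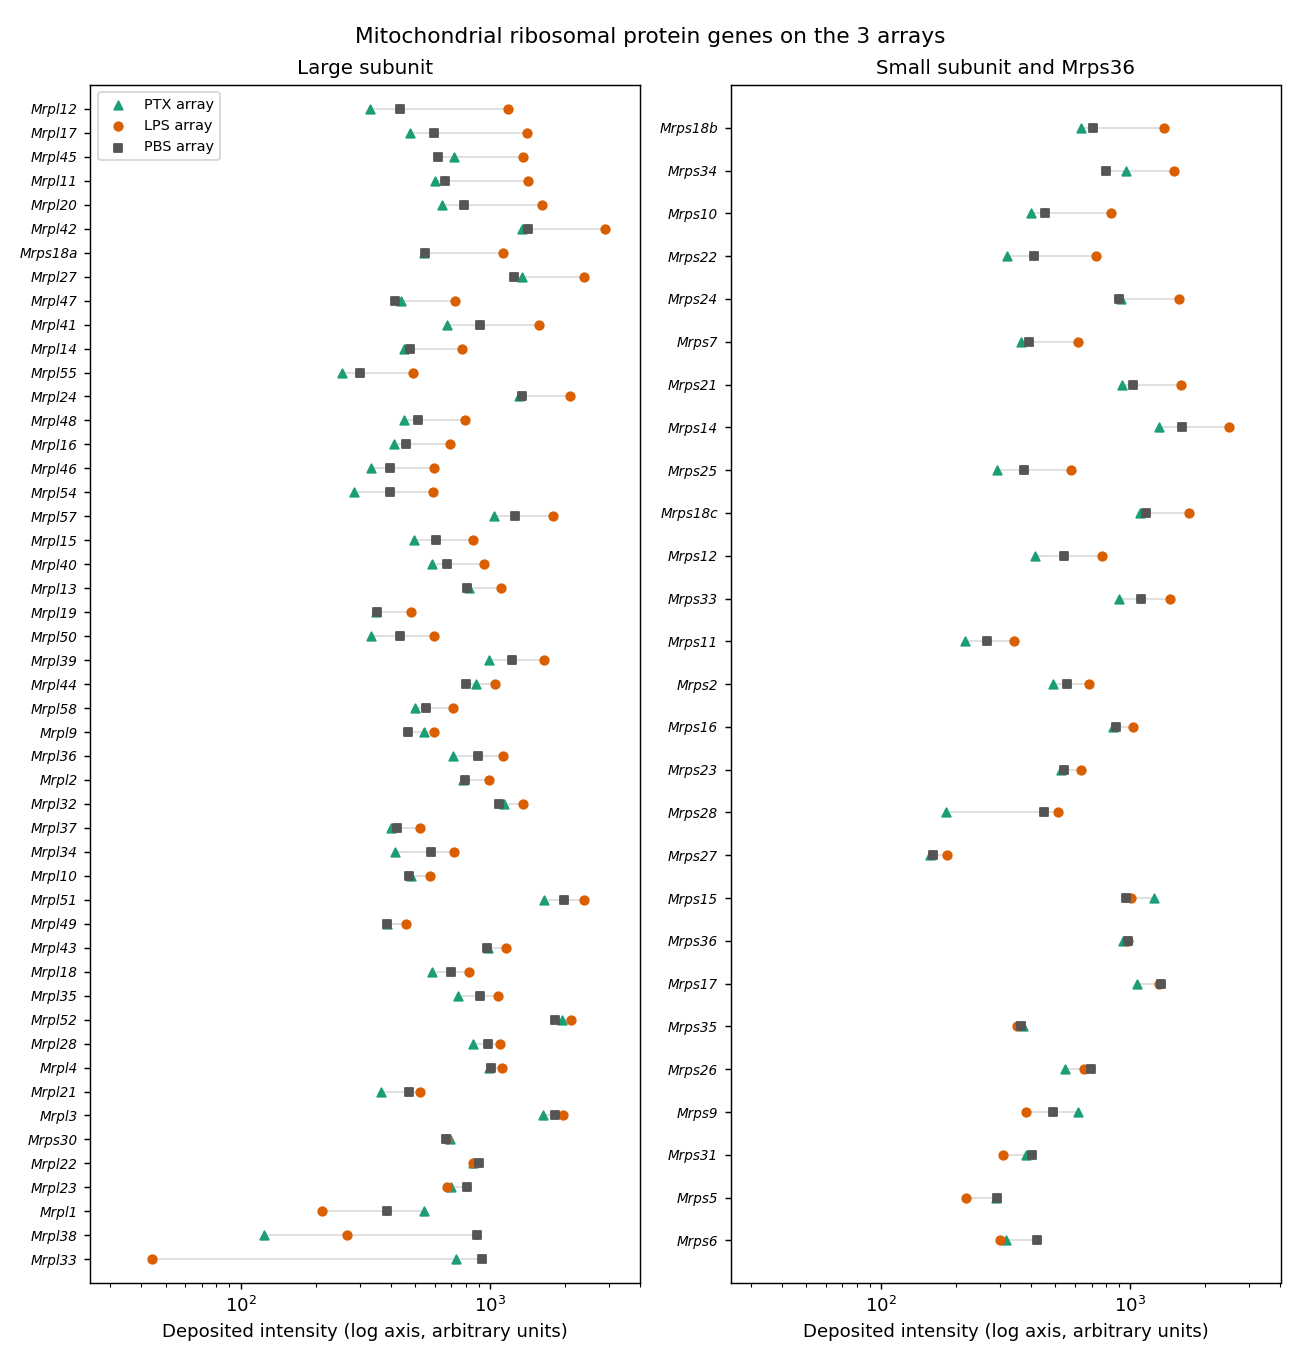
Deposited intensity (log axis) of each of the 76 genes on the PTX, LPS and PBS arrays, in rows ordered by the difference LPS minus PBS, with the large subunit on the left and the small subunit with Mrps36 on the right. Each point is 1 array and the grey line joins the lowest and the highest; the LPS point is the rightmost for 62 genes, whereas Mrpl33 and Mrpl1 have it far to the left.

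LPS against PBS addresses how these genes read after a Toll-like receptor 4 ligand. Most members read slightly higher on the LPS array: 64 of 76 differences lay above 0, against 44% of the 12299 measured genes, and 12 lay below 0, against 56%. The median log2 difference was 0.35, against -0.08 over all measured genes, and the middle of the distribution ran from 0.16 to 0.64 (quartiles). Few members passed 2-fold. Past 2-fold were 7 genes higher (6.5% of all measured genes) and 2 genes lower (13% of all measured genes), and 67 lay within 2-fold. The share of members at least 2-fold higher was near that of all genes; most differences were small and lay on one side of 0. Relative to the median of all genes, the members' median was 0.43 as deposited.

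**Figure D2:**
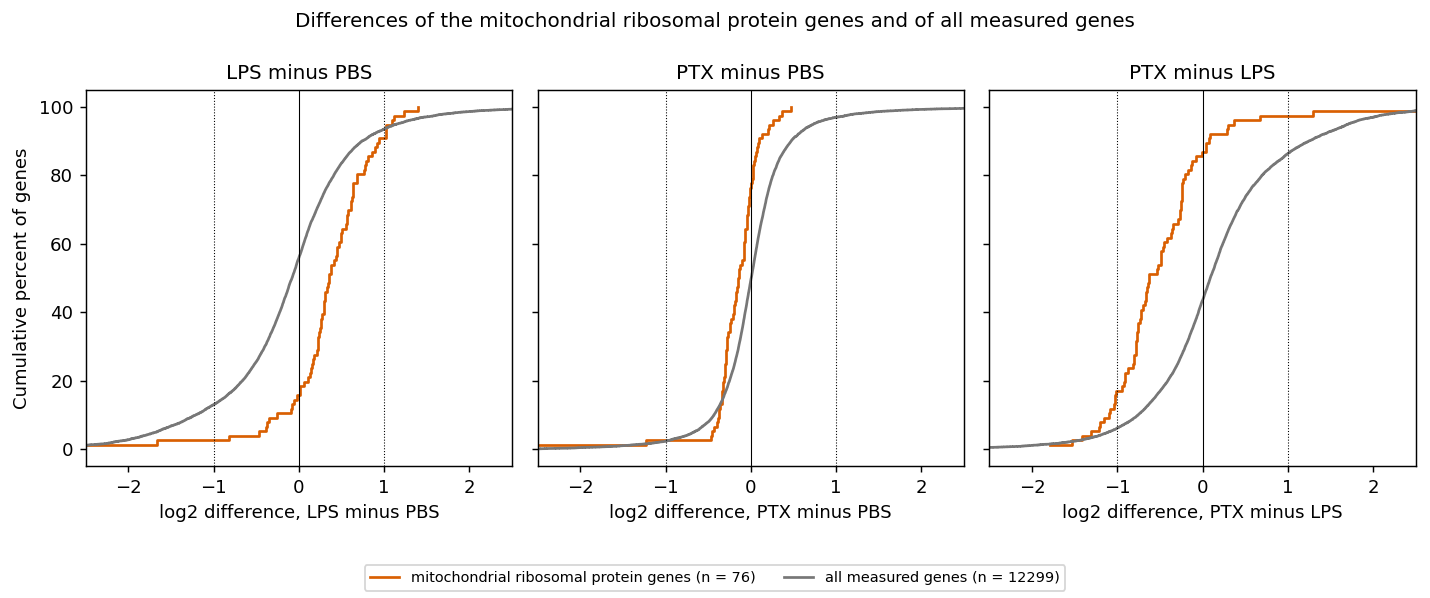
Cumulative percent of genes (vertical axis) by log2 difference (horizontal axis, cut at 2.5 on either side) for the 76 mitochondrial ribosomal protein genes and the 12299 measured genes, with dotted lines at 2-fold. The members' curve lies right of that of all genes in LPS minus PBS (medians 0.35 and -0.08), slightly left in PTX minus PBS (-0.14 and 0.01) and left in PTX minus LPS (-0.63 and 0.09); Mrpl33 and Mrpl38 lie outside the axis in 2 and 1 of the panels.

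The 7 genes at least 2-fold higher on the LPS array as deposited encode proteins found in the large subunit, to which 49 of the 76 members belong. With median centring 5 of the 17 genes at least 2-fold higher were of the small subunit. Mrpl12, the counterpart of the bacterial stalk protein that recruits translation factors, read 330 (PTX), 1179 (LPS) and 437 (PBS), a log2 difference of 1.40 in LPS minus PBS. Its partner at the stalk base, Mrpl11, read 604 (PTX), 1423 (LPS) and 658 (PBS), a difference of 1.09. Mrpl10, which anchors the stalk, read 483, 573 and 472 on the PTX, LPS and PBS arrays (0.27), so the stalk genes were unequal. Mrpl17, the counterpart of bacterial L17, read 478 (PTX), 1414 (LPS) and 595 (PBS), a difference of 1.23. Mrpl45, a mitochondria-specific protein that tethers the ribosome to the inner membrane beside the exit tunnel, read 715 (PTX), 1353 (LPS) and 618 (PBS), a difference of 1.11. Each of these genes had its LPS reading above both of the others.

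The remaining 3 lay just past 2-fold. Mrpl20, whose counterpart in Escherichia coli is needed to assemble the large subunit, read 644 (PTX), 1616 (LPS) and 787 (PBS), a difference of 1.02. The mitochondria-specific Mrpl42 read 1346 (PTX), 2885 (LPS) and 1417 (PBS), also 1.02. Mrps18a read 544 (PTX), 1127 (LPS) and 549 (PBS), again 1.02. Despite its symbol, Mrps18a was placed in the large subunit by structures of mammalian mitochondrial ribosomes, as was Mrps30, which read 692, 673 and 665 on the PTX, LPS and PBS arrays (0.02). Mrps18a is 1 of 3 relatives of the bacterial protein S18. The other two, Mrps18b (632 PTX, 1368 LPS, 707 PBS) and Mrps18c (1094 PTX, 1715 LPS, 1159 PBS), belong to the small subunit and differed by 0.94 and 0.56.

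The promoters of 3 of the most different genes are shown because each holds letters of the site bound by nuclear respiratory factor 1 (NRF1), a regulator of nuclear genes for mitochondria. They are the 130 bases before the RefSeq start on the gene's own strand, from the RefSeq table of build GRCm38.p6, with Mrpl12 at chr11:120484507-120484636, plus strand, Mrpl17 at chr7:105811088-105811217, minus strand and Mrpl45 at chr11:97315586-97315715, plus strand. Capitals mark each match to GCGCANGCG or its reverse complement.
Mrpl12: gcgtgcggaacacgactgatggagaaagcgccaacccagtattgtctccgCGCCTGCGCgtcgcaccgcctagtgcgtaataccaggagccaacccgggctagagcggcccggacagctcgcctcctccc
Mrpl17: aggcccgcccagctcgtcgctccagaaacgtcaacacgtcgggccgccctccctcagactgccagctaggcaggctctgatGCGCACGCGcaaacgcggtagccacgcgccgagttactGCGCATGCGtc
Mrpl45: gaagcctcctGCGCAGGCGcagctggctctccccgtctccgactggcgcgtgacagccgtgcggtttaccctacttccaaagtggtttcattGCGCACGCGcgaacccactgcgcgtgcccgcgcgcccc
The match begins 80 bases before the start in Mrpl12, at 49 and 11 bases before it in Mrpl17, and at 120 and 38 in Mrpl45. Mrpl11, at chr19:4962176-4962305, plus strand, is set beside them as a gene with a similar difference and no match in this window.
Mrpl11: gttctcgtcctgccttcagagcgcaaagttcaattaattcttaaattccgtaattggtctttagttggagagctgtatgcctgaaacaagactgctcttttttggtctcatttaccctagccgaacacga
Mrps18a (chr17:46110874-46111003, plus strand), Mrpl27 (chr11:94653661-94653790, plus strand) and Mrpl33 (chr5:31613821-31613950, plus strand), whose differences were 1.02, 0.92 and -3.97, each hold the ETS letters CCGGAA, in capitals, the core bound by GABP and other ETS factors.
Mrps18a: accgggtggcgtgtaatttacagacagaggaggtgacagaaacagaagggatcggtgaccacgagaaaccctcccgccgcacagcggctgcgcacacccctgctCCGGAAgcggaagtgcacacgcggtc
Mrpl27: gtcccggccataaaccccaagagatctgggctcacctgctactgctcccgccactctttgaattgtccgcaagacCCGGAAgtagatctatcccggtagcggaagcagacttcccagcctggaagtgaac
Mrpl33: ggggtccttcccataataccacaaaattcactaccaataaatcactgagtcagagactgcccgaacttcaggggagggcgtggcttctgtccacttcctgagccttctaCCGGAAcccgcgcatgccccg
A match is a description of letters and not a binding site. Among the genes at least 2-fold higher in LPS minus PBS, the promoters of Mrpl20 and Mrpl42 are not shown. The promoters shown thus give no share of matches among these genes.

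Of the 76 members 67 had RefSeq promoter windows of 250 bases before to 50 after a start, 73 windows in all, and 9 had none in the table. Letters were searched on both strands and a gene counted once if any window matched. The 9956 measured genes with a window had 12734 windows, more per gene than the members. The shares below are thus not strictly like for like. The ETS letters CCGGAA were in 38 of 67 members (56.7%), against 30.0% of the 9956 measured genes with a window. The NRF1 letters were in 15 (22.4%, against 14.4% of all), and the YY1 letters AAGATGGCG in 8 (11.9%, against 3.40%). The E-box CACGTG was in 5 (7.46%, against 11.5%), the cAMP response element TGACGTCA in 2 (2.99%, against 3.45%), and the interferon response letters GAAANNGAA in 7 (10.4%, against 8.37%). The NF-kB letters GGANTTTCC were in 1 (1.49%, against 1.62%). The GC box CCGCCC was in 34 (50.7%, against 65.9%), the TATA box TATAAA in 5 (7.46%, against 9.11%) and CCAAT in 26 (38.8%, against 42.3%). Forms of the NRF1, NF-kB and interferon response letters 1 base longer, searched first, were in 12 (17.9%, against 10.9%), 0 (against 0.59%) and 3 members (4.48%, against 3.68%). Matches of different letters overlapped in 2 member windows. The 15 genes with NRF1 letters had a median difference in LPS minus PBS of 0.41, against 0.32 for the 52 without. The 38 with ETS letters had a median of 0.30, against 0.57 for the 29 without.

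The 2 members at least 2-fold lower on the LPS array were Mrpl33 and Mrpl38. Mrpl33, a small protein of the large subunit with a bacterial counterpart, read 731 (PTX), 44.2 (LPS) and 927 (PBS), a difference of -3.97. The LPS reading lay below the level of 78.9, so the size depends on the pseudocount (-4.36 with 1 and -3.20 with 64). Set against that level, Mrpl33 was at least 11.7-fold lower on the LPS array than on the PBS array. Its only other probe set read 36.4, 28.5 and 39.6 on the same arrays, below the level for a measured probe set throughout, and so gives no check. Mrpl38, a mitochondria-specific protein of the central protuberance, read 124 (PTX), 268 (LPS) and 888 (PBS), a difference of -1.67, and was bright on the PBS array alone. Its other measured probe set read 117, 112 and 126 (PTX, LPS and PBS), a difference of -0.15, so its measured probe sets disagreed in size. Without Mrpl33 and Mrpl38 the median of the other 74 members was 0.37.

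Lower on the LPS array within 2-fold was Mrpl1, the protein of the mobile L1 stalk, at 542 (PTX), 212 (LPS) and 387 (PBS), a difference of -0.82, and its other measured probe set differed by -0.13. In the large subunit Mrpl23 at the exit tunnel (695 PTX, 675 LPS, 807 PBS, -0.25) and Mrpl22 in the tunnel wall (852 PTX, 855 LPS, 902 PBS, -0.08) were the other two below 0. Their neighbours at the tunnel lay above 0: Mrpl24 read 1311 (PTX), 2088 (LPS) and 1339 (PBS), a difference of 0.63, and Mrpl47 read 442, 727 and 418 on the PTX, LPS and PBS arrays (0.78). Mrpl3, beside the peptidyl transferase centre, read 1639 (PTX), 1964 (LPS) and 1826 (PBS), a difference of 0.10. Mrpl27, whose bacterial counterpart reaches into that centre, read 1345 (PTX), 2381 (LPS) and 1253 (PBS), a difference of 0.92. Both thus had their highest reading on the LPS array, at unequal distances from PBS. Mrpl58, a peptidyl-tRNA hydrolase built into the large subunit, read 500.2 (PTX), 709.7 (LPS) and 552 (PBS), a difference of 0.35. Among bright mitochondria-specific members, Mrpl51 read 1644 (PTX), 2382 (LPS) and 1987 (PBS), a difference of 0.26, and Mrpl52 read 1937 (PTX), 2119.9 (LPS) and 1831 (PBS), a difference of 0.21.

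By structural placement the 49 large-subunit genes had a median of 0.38 in LPS minus PBS, with 44 above 0, and the 26 small-subunit genes a median of 0.32, with 19 above 0. All 26 small-subunit genes lay within 2-fold as deposited, whereas with median centring Mrps10, Mrps18b, Mrps22, Mrps24 and Mrps34 were past it. The largest differences among them were those of Mrps18b, of Mrps34, a mitochondria-specific protein (961 PTX, 1497 LPS, 797 PBS, 0.90), and of Mrps10 (399 PTX, 837 LPS, 454 PBS, 0.86). Mrps22 read 319 (PTX), 729 (LPS) and 409 (PBS), a difference of 0.81. Mrps12, the counterpart of the bacterial decoding centre protein S12, read 413 (PTX), 771 (LPS) and 540.1 (PBS), a difference of 0.50. Among the 7 small-subunit genes below 0 in LPS minus PBS, Mrps6 read 318 (PTX), 300.1 (LPS) and 420.4 (PBS), a difference of -0.47. Mrps5, the counterpart of a bacterial protein of the messenger RNA entry site, read 288 (PTX), 219.97 (LPS) and 292 (PBS), a difference of -0.38. The mitochondria-specific Mrps31 read 379.8 (PTX), 309 (LPS) and 403 (PBS), a difference of -0.37. Mrps9, the counterpart of bacterial S9, read 617 (PTX), 380.03 (LPS) and 489 (PBS), a difference of -0.35, and so had its highest reading on the PTX array. Nearer 0 lay the mitochondria-specific Mrps26 (549 PTX, 651 LPS, 694 PBS, -0.09) and Mrps35 (372 PTX, 350.2 LPS, 364 PBS, -0.05). The second measured probe sets of Mrps6 and Mrps5 lay on the other side, at 0.23 and 0.26. Mrps36, long named as a ribosomal protein and since assigned to the 2-oxoglutarate dehydrogenase complex, read 931 (PTX), 982 (LPS) and 977 (PBS), a difference of 0.01.

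By evolutionary origin, the 46 with a bacterial counterpart had a median of 0.33 in LPS minus PBS (38 above 0), and the 29 mitochondria-specific ones other than Mrps36 a median of 0.38 (25 above 0). In PTX minus PBS the medians were -0.14 and -0.16 in the same order. The relatives of bacterial S18 were not placed alike. Mrps18a and Mrps18c were counted among those with a bacterial counterpart and Mrps18b among the mitochondria-specific ones. The medians were not recomputed with another placement. The members lie on 17 chromosomes of the RefSeq table.

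Several members were read by more than 1 probe set, which compares parts of the same transcript in the same RNA and is no biological replicate. Of the 156 probe sets 137 were measured, and 35 genes had at least 2 measured. In LPS minus PBS the second brightest lay above 0 for 24 of the 35, with a median of 0.26, against 30 and 0.38 for the brightest. Both lay above 0 for 22 genes and both below 0 for 3. Close agreement was seen for Mrpl39 (0.41 and 0.44), Mrpl50 (0.44 and 0.40) and the RNase III-like Mrpl44, whose 4 probe sets ran from 0.38 to 0.55. Mrpl11 was at least 2-fold higher in 2 of 4 probe sets (1.09 and 1.40), with the others at 0.73 and 0.25. Mrps14, the counterpart of bacterial S14, read 1305 (PTX), 2482 (LPS) and 1609 (PBS) in its brightest probe set, a difference of 0.62, but differed by -0.45 and -0.25 in the others measured. Mrps15 differed by 0.06 in its brightest probe set, whereas the second read 572 (PTX), 1197 (LPS) and 465 (PBS), a difference of 1.33, and the last -0.34. Mrpl34 differed by 0.29 in its brightest probe set and by 2.19 in the other (50.9 PTX, 271 LPS, 46.8 PBS). Mrpl17 was not of 1 sign either: its other measured probe sets differed by -0.61 and 2.10. The highest reading of any array was 89.6 in the first of these and 176 in the second.

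Counted singly, 12 of the 137 measured probe sets passed 2-fold upward in LPS minus PBS and 6 downward, against 6.23% and 16.3% of all 21805 measured probe sets with 1 symbol. Among the 6 lower, 5, Mrpl33 included, were low on the LPS array and not on the PTX array. For Mrpl13 the odd probe set read 558 (PTX), 26.8 (LPS) and 495 (PBS), a difference of -3.58, whereas the other measured ones differed by 0.45 and 0.47. For Mrpl28 the odd one read 658 (PTX), 169 (LPS) and 802 (PBS), a difference of -2.14, against 0.16 and 0.47 in the others. Mrps9 (-1.90, others -0.35, -0.17 and 0.03) and Mrpl47 (-1.36, other 0.78) were alike. Mrpl33 has no other measured probe set to set beside it. The cause of these readings was not tested.

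**Figure D3:**
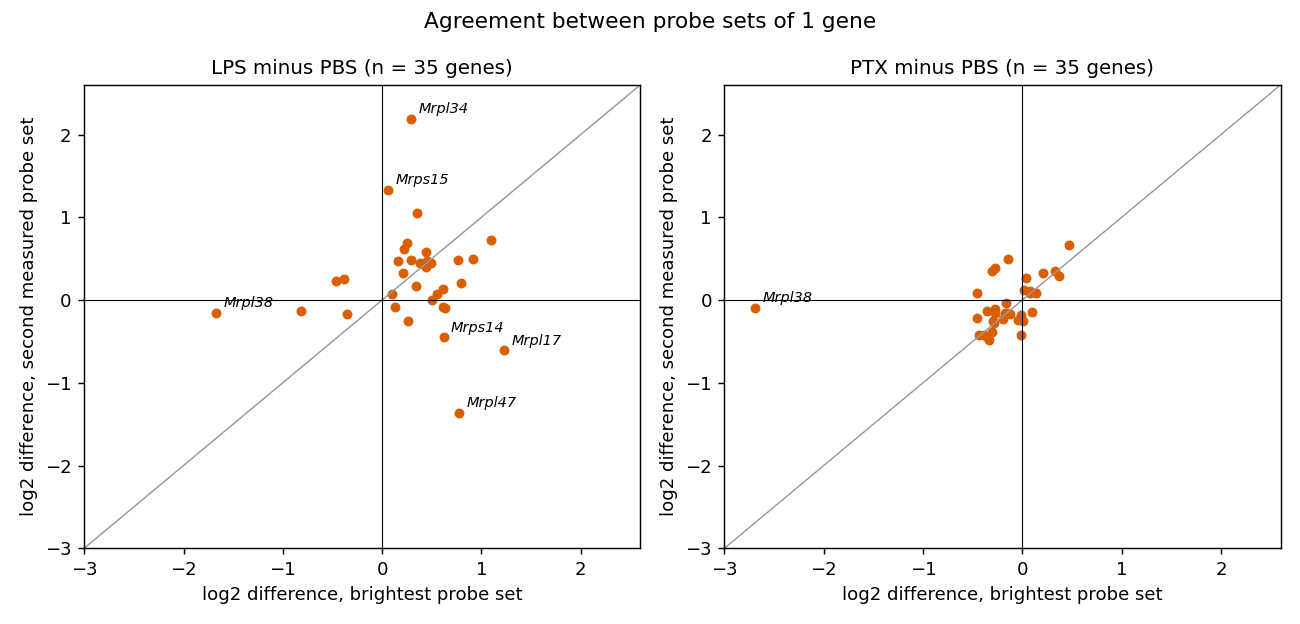
Log2 difference of the second brightest measured probe set (vertical axis) against that of the brightest (horizontal axis) for the 35 genes with at least 2 measured probe sets, with the line of equality in grey. In LPS minus PBS most points lie in the upper right, with Mrpl34, Mrps15, Mrps14, Mrpl17, Mrpl47 and Mrpl38 over 1 unit from equality; in PTX minus PBS the points lie close to 0 except Mrpl38.

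Brightness and scaling both moved with the LPS differences. Over all measured genes the median in LPS minus PBS was -0.21 in the dimmest of 4 equal classes by mean log2 value, -0.18 and -0.09 in the next ones and 0.16 in the brightest. Of the members 3 lay in the second class (median 0.17), 40 in the third (median 0.35, 31 above 0) and 33 in the brightest (median 0.38, 31 above 0). None lay in the dimmest class. In the brightest class 61.5% of all genes lay above 0, and in the class before it 43.0%. The number of members at least 2-fold higher and lower was 7 and 2 as deposited. After centring each array on its median it was 17 and 2, against 11.6% and 8.37% of all genes. After quantile normalization it was 5 and 2 (7.94% and 9.47% of all genes), and after scaling on the hybridization controls 2 and 2 (5.03% and 15.6%). The median of all genes was -0.08 as deposited and 0.27, 0.11 and -0.23 under these scalings in turn. Relative to it the members' median was 0.43, 0.41, 0.29 and 0.44. Centring and control scaling move all genes of an array by the same amount, so they could barely change this value. Quantile normalization could change it and gave 0.29. The size of the members' median against 0 did not hold under these scalings.

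**Figure D4:**
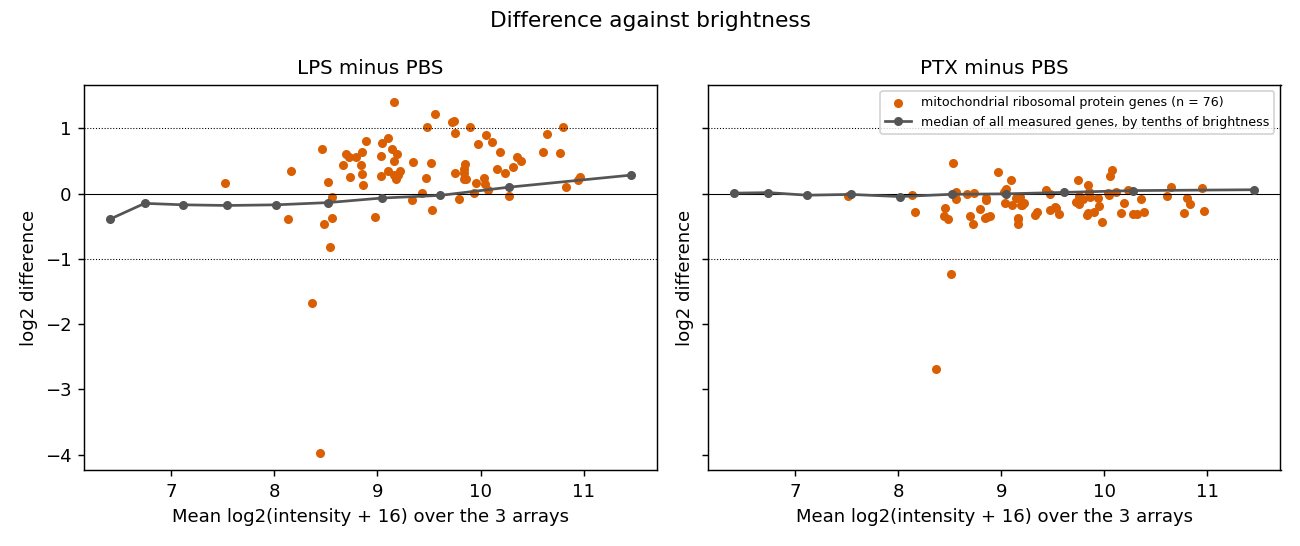
Log2 difference (vertical axis) against the mean log2(intensity + 16) over the 3 arrays (horizontal axis) for the 76 members (points), with the median of all measured genes in classes of brightness as a line. In LPS minus PBS most members lie above the line over the whole of their range; in PTX minus PBS they lie around and slightly below it.

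PTX against PBS gave much smaller differences. None of the 76 members was at least 2-fold higher (3.04% of all measured genes), 2 were at least 2-fold lower (2.37% of all measured genes), and 74 differed by less than 0.5 on the log2 scale, against 82.8% of all measured genes. Their sign leaned one way: 58 of 76 lay below 0, against 49.3% of all measured genes, with a median of -0.14, against 0.01 over all. The lower genes were Mrpl38, from the probe set that was bright on the PBS array alone (-2.69, other measured probe set -0.09), and Mrps28. Mrps28, a small-subunit protein with a bacterial counterpart, read 183 (PTX), 513 (LPS) and 452 (PBS), a difference of -1.23, and its 1 probe set leaves no check. Next came Mrpl54 (286 PTX, 594 LPS, 399 PBS, -0.46), Mrpl34 (418 PTX, 715 LPS, 581 PBS, -0.46) and Mrpl41 (-0.43). In the same direction lay Mrpl50, a mitochondria-specific protein (333 PTX, 595 LPS, 435 PBS, -0.37), and Mrpl21, with a bacterial counterpart (367 PTX, 522 LPS, 475 PBS, -0.36). The highest were Mrpl1 at 0.47, whose other measured probe set differed by 0.66, Mrps15 at 0.36 (1241 PTX, 1003 LPS, 960.3 PBS) and Mrps9 at 0.33. They were followed by Mrps34 at 0.27, Mrpl9 at 0.21 (542 PTX, 596 LPS, 467 PBS), Mrpl45 at 0.21 and Mrpl44 at 0.14 (880.3 PTX, 1046 LPS, 799 PBS).

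The 7 genes that led in LPS minus PBS lay within 2-fold in PTX minus PBS, 6 below 0 and Mrpl45 above it. They differed by -0.39 (Mrpl12), -0.31 (Mrpl17), -0.28 (Mrpl20), -0.12 (Mrpl11), -0.07 (Mrpl42), -0.01 (Mrps18a) and 0.21 (Mrpl45). These values share the PBS array with those of LPS minus PBS and are set side by side only. The large-subunit genes had a median of -0.15 (36 of 49 below 0) and the small-subunit genes also -0.15 (21 of 26 below 0). The second probe sets lay near the first: of 35 genes 29 had both on the same side of 0, with medians of -0.17 for the brightest and -0.14 for the second.

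PTX against LPS, the comparison named in the series title, gave the largest shift of the set. In PTX minus LPS 66 of 76 members lay below 0 (43.5% of all measured genes), with a median of -0.63, against 0.09 over all. The 10 above 0 compare with 56.5% of all measured genes. Past 2-fold were 13 genes lower on the PTX array (6.24% of all measured genes) and 2 genes higher (13.7%). After centring on the array medians the counts were 35 lower (12.6% of all genes) and 1 higher (8.57%). After scaling on the hybridization controls they were 7 lower (4.98% of all genes) and 2 higher (15.8%). After quantile normalization they were 15 lower (8.62% of all genes) and 2 higher (9.79%). The median of all genes was -0.28 with centring, 0.20 with control scaling and -0.14 with quantile normalization. Relative to the median of all genes, the members' median was -0.72 as deposited and -0.50 with quantile normalization. The 13 were Mrpl12 (-1.79), Mrpl17 (-1.53), Mrps28 (-1.41), Mrpl20 (-1.31), Mrpl11 (-1.22), Mrpl41 (-1.20), Mrps22 (-1.15), Mrps18b (-1.10), Mrpl42 (-1.09), Mrps10 (-1.04), Mrps18a (-1.03), Mrpl38 (-1.02) and Mrpl54 (-1.01). Mrpl41, a mitochondria-specific protein of the large subunit, read 673 (PTX), 1568 (LPS) and 914 (PBS). Mrps28 had a low PTX reading beside close LPS and PBS readings, and Mrpl38 had its highest reading on the PBS array. The 2 higher genes, Mrpl33 (3.63) and Mrpl1 (1.29), were low on the LPS array. The same LPS array enters this comparison and LPS minus PBS. In the 35 genes with at least 2 measured probe sets, the second brightest had a median of -0.36, against -0.63 for the brightest. Both lay on the same side of 0 for 24 genes, and for 16 genes the probe sets spanned more than 1. In the brightest class 44.1% of all genes and 1 of 33 members lay above 0. In the class before it the values were 56.4% and 8 of 40.

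Subunits of the mitochondrial ribosome that carry other symbols were read alongside. Chchd1, a small-subunit protein, read 1396 (PTX), 2605 (LPS) and 1463 (PBS), a difference of 0.83 in LPS minus PBS. Dap3, the GTP-binding small-subunit protein first known from cell death, read 531 (PTX), 1076 (LPS) and 648 (PBS), a difference of 0.72. Gadd45gip1, of the large subunit, read 201 (PTX), 329 (LPS) and 231 (PBS), a difference of 0.48, and Ptcd3, an RNA-binding small-subunit protein, read 312, 327 and 414 on the PTX, LPS and PBS arrays (-0.33). Of these 4 genes, 3 lay above 0 in LPS minus PBS and all 4 below 0 in PTX minus PBS.

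The other lists of mitochondrial translation had medians near or below 0 in LPS minus PBS, and no test of their difference from the members was possible. Most of their genes read dimmer than the median member. Over all measured genes the dimmest class had a median of -0.21 and the next one of -0.18. The part of brightness in this contrast was not tested. Of 25 measured genes of ribosome assembly and ribosomal RNA modification 13 lay above 0 (median 0.00). Past 2-fold were 1 higher (6.5% of all measured genes) and 2 lower (13% of all measured genes). The higher one was Mpv17l2, an assembly factor (225 PTX, 473 LPS, 224 PBS, 1.03). The lower ones were the assembly GTPase gene Gtpbp10 (293 PTX, 109 LPS, 282 PBS, -1.25) and Fastkd2, which binds the large ribosomal RNA (322 PTX, 161 LPS, 395 PBS, -1.22). The 14 translation factors and messenger RNA regulators all lay within 2-fold (median 0.04), among them the elongation factor genes Tufm (0.25), Tsfm (0.55) and Gfm1 (0.04) and the initiation factor gene Mtif2 (-0.64). The 19 mitochondrial aminoacyl-tRNA synthetases and amidotransferase subunits had a median of -0.07. Of these 2 were at least 2-fold higher (6.5% of all measured genes) and 2 lower (13% of all measured genes). They were Tars2 (107 PTX, 584 LPS, 122 PBS, 2.12), Ears2 (181 PTX, 238 LPS, 99.2 PBS, 1.14), Gatc (483 PTX, 180.3 LPS, 448 PBS, -1.24) and Mars2 (21.5 PTX, 30.1 LPS, 83.9 PBS, -1.12).

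The 10 genes of mitochondrial DNA maintenance and transcription had a median of -0.12 in LPS minus PBS, with 9 within 2-fold. At least 2-fold higher was 1 gene (6.5% of all measured genes). It was Twnk, the replicative helicase (154 PTX, 1163 LPS, 200.2 PBS, 2.45). The packaging factor gene Tfam differed by -0.06 and the RNA polymerase gene Polrmt by -0.13. All 7 measured regulators of mitochondrial biogenesis lay below 0 within 2-fold (median -0.45), and 56% of all measured genes lay below 0. Among the 7 were Nrf1 (214 PTX, 137 LPS, 252 PBS, -0.81) and Gabpa, the ETS factor (635 PTX, 363 LPS, 697 PBS, -0.91). Ppargc1a was not measured. In PTX minus PBS the 5 lists from assembly to biogenesis had medians between -0.13 and -0.07. Over these 5 lists, 2 genes were at least 2-fold lower in PTX minus PBS, against 2.37% of all measured genes. They were Myc (42.8 PTX, 189 LPS, 226 PBS, -2.04) and Mars2 (-1.41). None was at least 2-fold higher, against 3.04% of all measured genes.

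**Figure D5:**
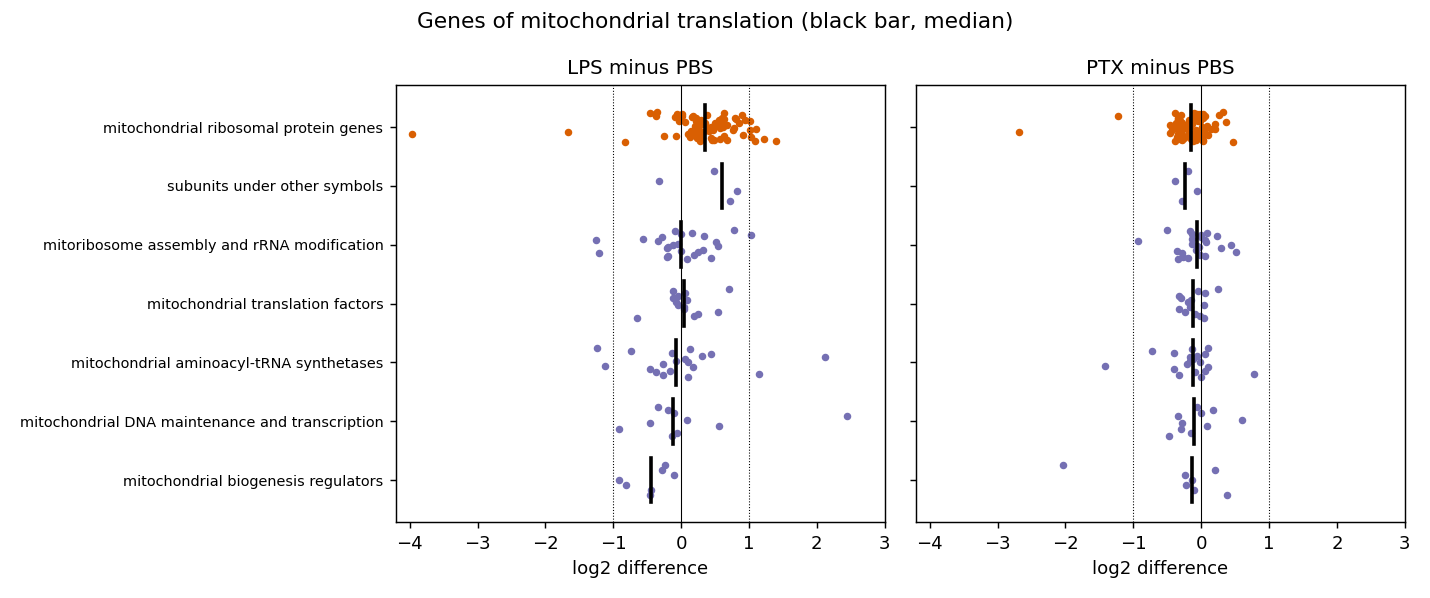
Log2 difference (horizontal axis) of each measured gene in 7 lists of mitochondrial translation, with the mitochondrial ribosomal protein genes at the top; points are genes, black bars are medians and dotted lines mark 2-fold. In LPS minus PBS the ribosomal proteins (median 0.35) and the subunits under other symbols (0.60) lie right of 0, whereas the other lists have medians between -0.45 and 0.04.

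Related gene families were read beside the members. In LPS minus PBS the members' median of 0.35 lay between that of 47 measured cytosolic ribosomal protein genes (0.18, with 36 above 0) and that of 74 genes of the respiratory chain and ATP synthase (0.57, with 66 above 0). In PTX minus PBS the members' median of -0.14 lay below those of both families, -0.10 for the cytosolic ribosomal proteins and -0.04 for respiration. In PTX minus LPS the respiration genes had a median of -0.65 (68 of 74 below 0), close to the members' -0.63 (66 of 76 below 0). That of the cytosolic ribosomal protein genes was -0.30 (38 of 47 below 0). No test of a difference between these families was possible with 1 array per group.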

How the data were processed

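The authors deposited linear-scale intensity values, 1 for each probe set on each array, from biotin-labelled cRNA made from 3 µg of total RNA on Affymetrix arrays, per the labels' protocols. How probes were summarized, corrected for background and scaled is not given in the sources used here. Their lowest value was 1, and the array medians differed.

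Intensities were used as deposited. After 16 was added they were taken to log2, which shrinks differences of dim probe sets. Of 45101 probe sets 64 were controls, 34945 had 1 platform symbol, 932 several and 9160 none listed; only the first kind was used. The brightest probe set by mean log2 value stood for a gene, which was measured when it reached the median of all noncontrol values on at least 1 array, which left 12299 of 18193 genes. Counts are of genes past 2-fold, that is 1 or more on the log2 scale. The 3 comparisons (LPS minus PBS, PTX minus PBS, PTX minus LPS) were made with no test, since each group held 1 array, and the number of arrays limits the precision.

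Subunit and origin of each member were written from structural nomenclature, but the relatives of bacterial S18 were not placed alike by origin. From 6 pathway lists 85 symbols were used, of which 81 had a probe set and 79 were measured. The named genes are members with the largest differences in each comparison, members at least 2-fold apart, members whose probe sets differ, members placed by role, and up to 4 genes of each pathway list plus its main factors. Members and lists were chosen with earlier results of these data known. The promoter letters, the 2 families set beside the members, the promoters shown and 2 of 10 alternatives were chosen after values were seen. The functions were checked on simulated arrays. Python 3.11.15 with pandas 2.3.3, numpy 2.4.6, scipy 1.17.1 and matplotlib 3.10.9 was used.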

Additional observations from a re-analysis of the deposited data

How the results depend on the processing

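Each median, and each count of members at least 2-fold apart, was recomputed under 10 alternatives. A median was taken as moved when it left the 95% binomial interval of the median over members (0.26 to 0.50 for LPS minus PBS, -0.23 to -0.07 for PTX minus PBS and -0.74 to -0.37 for PTX minus LPS), which shows the spread between genes and not between samples. No median changed sign, and 72 of 90 recomputed values stayed inside that interval or, for counts, within 1.5 times. Leaving out the filter could not move any of them, since all members were measured. In the counts that follow, the share of all genes under the same setting stands in brackets. With median centring the median was 0.67 in LPS minus PBS and -0.97 in PTX minus LPS. The counts were 17 higher (11.6%) in LPS minus PBS and, in PTX minus LPS, 1 higher (8.57%) and 35 lower (12.6%). With scaling on the hybridization controls the LPS minus PBS median was 0.21, with 2 higher (5.03%), and 7 were lower (4.98%) in PTX minus LPS. With a pseudocount of 64, 4 were higher (4.66%) in LPS minus PBS. With the mean over probe sets the PTX minus LPS median was -0.36, with 7 lower (4.91%). Under that setting 1 was lower in LPS minus PBS (11.2%) and 1 in PTX minus PBS (2.07%). Without probe sets of the _s_, _x_ and _a_ kinds 60 members were left. Of these 1 was lower in LPS minus PBS (14.0%) and 1 in PTX minus PBS (2.34%). Counting every measured probe set, with shares of all measured probe sets, gave 12 higher (6.23%) and 6 lower (16.3%) in LPS minus PBS. In PTX minus LPS it gave 7 higher (17.3%). The 26 calls of single genes were recomputed 231 times and stayed past 2-fold in 189. Of the calls, 8 did so throughout, among them those of Mrpl12, Mrpl33 and Mrps28. Alternatives that changed only the filter could not alter a gene's value. Nor could the choice of probe set for Mrpl12 and Mrps28, which have 1 each. These counts thus include values that could not move. Of the other recomputed values, 39 fell under 2-fold with the same sign. In LPS minus PBS the lowest values were 0.73 for Mrpl11, 0.45 for Mrpl42, 0.88 for Mrpl20, 0.87 for Mrps18a, 0.97 for Mrpl45 and, in size, -0.15 for Mrpl38. The remaining 3 changed sign, all without the _s_, _x_ and _a_ probe sets: Mrpl17 was -0.61 in LPS minus PBS and 0.95 in PTX minus LPS, and Mrpl38 was 0.062 in PTX minus LPS. In these the alternative reads another probe set. No paired analysis was possible because each group held 1 array. The cause of the other moves was not tested.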

Other observations

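Probe sets that name a member together with another gene were left out of the counts, and 4 of them exist. The probe set shared by Mrpl53, a mitochondria-specific protein of the large subunit, and Ccdc142 read 441 (PTX), 1030 (LPS) and 488 (PBS), a log2 difference of 1.05 in LPS minus PBS and of -0.14 in PTX minus PBS. The probe set shared by Mrps34 and Nme3 read 304 (PTX), 364 (LPS) and 285 (PBS), a difference of 0.34 in LPS minus PBS. Mrpl30 was read only together with Gm6238. Its brighter probe set read 2388 (PTX), 2094 (LPS) and 2028 (PBS), a difference of 0.05, whereas the other read 36.6 (PTX), 651 (LPS) and 36.6 (PBS), a difference of 3.66.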
